A study of Mus musculus with 7 samples.

Results

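The genes described here are 8 regulators that act upstream of the Lats kinases of the Hippo pathway: the Kibra family genes Wwc1 and Wwc2, the LIM domain scaffold genes Ajuba, Limd1 and Wtip, and the membrane-associated regulators Frmd6, Amot and Fat4. They were found on the array by matching each probe's transcript accession to its gene symbol, which gave 1 probe for each of the 8 genes, or 8 of the 55681 probes and 8 of the 20863 genes with a symbol. Probes whose accession had no symbol could not be searched. Of these 8 probes, 6 were well above background on all 7 arrays and were tested, while those of Frmd6 and Fat4 were well above background on none. The genes were grouped by their place in the pathway, with earlier results of these data known, so that counts over them are a description.

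The study deleted Mob1a and Mob1b, adaptors that activate the Lats kinases, in the intestinal epithelium of adult male mice backcrossed to C57BL/6J for more than 6 generations. All mice carried floxed alleles of both genes (Mob1a f/f; Mob1b f/f) and, per the labels, received tamoxifen at 80 mg/kg per day for 2 days at the age of 8 weeks. The knockout groups also carried Villin-creERT2, a tamoxifen-dependent Cre recombinase expressed from the promoter of an epithelial gene, and were taken at day 4 (2 mice), day 7 (2 mice) and day 10 (1 mouse). The controls (2 mice, labelled wild type) carried no Cre. Their day is given as day 7 in the sample labels and as 0 days in the design text. Cre itself was present in the knockout groups alone, so its effects and those of losing Mob1a and Mob1b cannot be told apart. Epithelial cells were released from the proximal intestine with 2 mM EDTA, and their RNA was hybridised to 1-colour arrays, with 1 array per mouse.

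In the Hippo pathway the kinases Mst1 and Mst2 activate Lats1 and Lats2, which phosphorylate the coactivators YAP and TAZ and keep them out of the nucleus, where they would bind TEAD transcription factors. Kibra proteins are scaffolds with WW domains that bind Lats and help to activate it. Ajuba, Limd1 and Wtip bind Lats through their LIM domains and hold it in a restrained state at cell junctions. Frmd6 is a FERM domain protein and Fat4 a giant cadherin placed upstream of the pathway, and Amot tethers YAP at junctions and in the cytoplasm.

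Each array had 45.2% to 51.3% of its probes well above background and 0 saturated spots. Arrays were scaled to their 75th percentile signal, which was 470 at day 10 and 278 to 339 elsewhere. Slide row 1 held all control and day 4 samples, and row 2 all later ones, so that row and time cannot be told apart in differences between these sets. Of the targeted genes, Mob1b had a level of -0.73 and -0.92 in the controls and between -2.50 and -2.21 on the 5 knockout arrays, while the single Mob1a probe was dim, at -3.69 and -3.50 in the controls and between -4.04 and -1.97 on the knockout arrays, where the highest was that of day 10 (1.63 ± 0.30 above control, limma adjusted p = 0.010). Mob1b thus went with the labels and Mob1a gave no check of them, and the place of either probe relative to the deleted exons was not known. All 10 epithelial markers (Vil1, Epcam, Cdh1 and others) were well above background on every array, with a summed level of 2844 to 2851 in controls, 2613 to 2740 at day 4, 2835 to 2977 at day 7 and 2445 at day 10, in units of the array's 75th percentile. Against control, none of the 10 had a limma adjusted p under 0.05 at day 4 or day 7. At day 10, 3 were higher and 2 lower at that threshold, which a sum does not show. In such bulk samples fewer cells of a type and less RNA per cell cannot be told apart. A level below is the log2 signal minus the 75th percentile of the array, a difference is between group means of levels with its standard error (SE) from limma, and a probe was called at a Benjamini-Hochberg adjusted p under 0.05 over 28952 probes. Levels of different probes are not comparable. The differences at day 4, day 7 and day 10 share the 2 control arrays, so they are not independent of each other.

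Wwc2, the Kibra paralogue, had the steepest rise of the 6 tested genes up to day 7. Its signal was 48.2 and 86.0 in the controls and 4793 and 4805 at day 4, which are levels of -2.53 and -1.89 in controls and 3.82 and 3.94 at day 4. The levels at day 7 were 5.19 and 5.03, and the level at day 10 was 4.54. Every knockout array thus lay above both controls, and the day 4 arrays lay below all later ones. The difference from control was 6.09 ± 0.27 at day 4, a 68.2-fold rise (limma adjusted p = 0.0061), which was rank 3 of 28952 probes from the highest. It was 7.33 ± 0.27 at day 7, or 160-fold (adjusted p = 0.0012, rank 10), and 6.75 ± 0.34 at day 10, or 108-fold (adjusted p = 2.15e-04, rank 107). On the log2 scale 83.2% of the day 7 difference was present at day 4. The further steps did not pass the test, with 1.23 ± 0.27 from day 4 to day 7 (limma adjusted p = 0.081) and -0.57 ± 0.34 from day 7 to day 10 (adjusted p = 0.30). The call at day 4 ended without either day 4 replicate (limma adjusted p = 0.21 in both cases), where the difference was 6.15 and 6.03. With normexp background correction, whose offset lowers the differences of dim probes, the differences were 5.22 at day 4, 6.42 at day 7 and 5.98 at day 10, all called.

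Wwc1, which encodes Kibra itself, rose less. Its levels were 3.08 and 3.37 in controls, 4.37 and 4.49 at day 4, 5.38 and 5.18 at day 7, and 5.26 at day 10. The control, day 4 and day 7 arrays did not overlap, and the day 10 array lay between the day 7 arrays. The difference at day 4 was 1.21 ± 0.22, with a 95% confidence interval from 0.67 to 1.75 before adjustment, and did not pass the test over all probes (limma adjusted p = 0.28). It rose 4.16-fold at day 7 (2.06 ± 0.22, adjusted p = 0.0065) and 4.10-fold at day 10 (2.03 ± 0.27, adjusted p = 0.0034). On the log2 scale 58.7% of the day 7 difference was present at day 4. The step from day 7 to day 10 was -0.02 ± 0.27, with a 95% confidence interval from -0.69 to 0.64.

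Ajuba, a LIM scaffold that restrains Lats at junctions under tension, was near the lower end of the measured range in controls and had higher levels at each later time. Its levels were -2.84 and -3.13 in controls, 0.83 and 0.23 at day 4, 3.07 and 2.97 at day 7, and 4.02 at day 10. No group overlapped with another. The difference from control was 3.52 ± 0.28 at day 4, or 11.4-fold (limma adjusted p = 0.046), 6.01 ± 0.28 at day 7, or 64.2-fold (adjusted p = 0.0013), and 7.01 ± 0.34 at day 10, or 129-fold (adjusted p = 2.15e-04). Between day 4 and day 7 it rose 5.62-fold (2.49 ± 0.28, limma adjusted p = 0.016). The step to day 10 was 1.00 ± 0.34 (adjusted p = 0.096). The day 4 call ended without any 1 of the 6 replicates of the control, day 4 and day 7 groups, with sizes from 3.21 to 3.82. Leaving out either day 7 replicate gave the same fit as comparing only the 2 groups (3.52 ± 0.28), as a group of 1 array adds nothing to the estimate of spread. Those losses therefore do not show that the call depends on a day 7 mouse. With normexp background correction, whose offset lowers the differences of dim probes, the differences were 2.33 at day 4 (adjusted p = 0.073), 4.73 at day 7 and 5.75 at day 10. The call from day 4 to day 7 ended without day 4 replicate 1 (2.79, adjusted p = 0.078), day 4 replicate 2 (2.19, adjusted p = 0.13) or day 7 replicate 1 (2.44, adjusted p = 0.067).

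Wtip, a LIM scaffold related to Ajuba and Limd1, had higher levels at each later time. Its levels were -0.37 and -0.03 in controls, 2.03 and 1.46 at day 4, 2.91 and 2.58 at day 7, and 4.57 at day 10. No group overlapped with another. The difference at day 4 was 1.94 ± 0.29, with a 95% confidence interval from 1.24 to 2.65, and did not pass (limma adjusted p = 0.17). Wtip rose 7.71-fold at day 7 (2.95 ± 0.29, adjusted p = 0.0050) and 27.2-fold at day 10 (4.77 ± 0.35, adjusted p = 4.99e-04). From day 7 to day 10 it rose 3.53-fold (1.82 ± 0.35, limma adjusted p = 0.019). That call ended without day 7 replicate 2 (1.65, adjusted p = 0.058). The step from day 4 to day 7 was 1.00 ± 0.29 (adjusted p = 0.14).

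Limd1, the third LIM scaffold of the group, was not called in any comparison. Its levels were 3.28 and 3.45 in controls, 3.16 and 3.16 at day 4, 3.49 and 3.22 at day 7, and 2.99 at day 10, a range of 0.49 over the 7 arrays. The day 4 and day 10 arrays lay below both controls, and the day 7 arrays overlapped with them. The difference from control was -0.21 ± 0.22 at day 4 (95% confidence interval from -0.73 to 0.32), -0.01 ± 0.22 at day 7 (from -0.54 to 0.51) and -0.37 ± 0.27 at day 10 (from -1.02 to 0.27), with limma adjusted p of 0.97, 0.98 and 0.34. At each of these times the upper bound lay below the lower bound for Ajuba (2.84 at day 4, 5.33 at day 7 and 6.19 at day 10) and for Wtip (1.24, 2.24 and 3.91), while the difference between the genes was not itself tested.

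Amot, an angiomotin that binds YAP, had a small and flat difference. Its levels were 2.09 and 2.04 in controls, 2.99 and 2.55 at day 4, 2.86 and 2.65 at day 7, and 2.74 at day 10. All knockout arrays lay above both controls, while the knockout groups overlapped with each other. The difference was 0.71 ± 0.24 at day 4, 0.70 ± 0.24 at day 7 and 0.68 ± 0.29 at day 10, with limma adjusted p of 0.69, 0.15 and 0.14. Before adjustment the 95% confidence interval ran from 0.12 to 1.29 at day 4, from 0.11 to 1.28 at day 7 and from -0.04 to 1.39 at day 10.

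The probes of Frmd6, which encodes the FERM protein Willin, and of Fat4 stayed at background on all 7 arrays, none having either well above it. The Frmd6 signal was between 3.49 and 5.93. The Fat4 signal was between 3.26 and 5.19 on 6 arrays and 10.5 on day 7 replicate 2. The lowest signal of any probe well above background was between 12.0 and 23.6 on these arrays, so that both genes have only an upper bound and no difference is given.

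**Figure D1:**
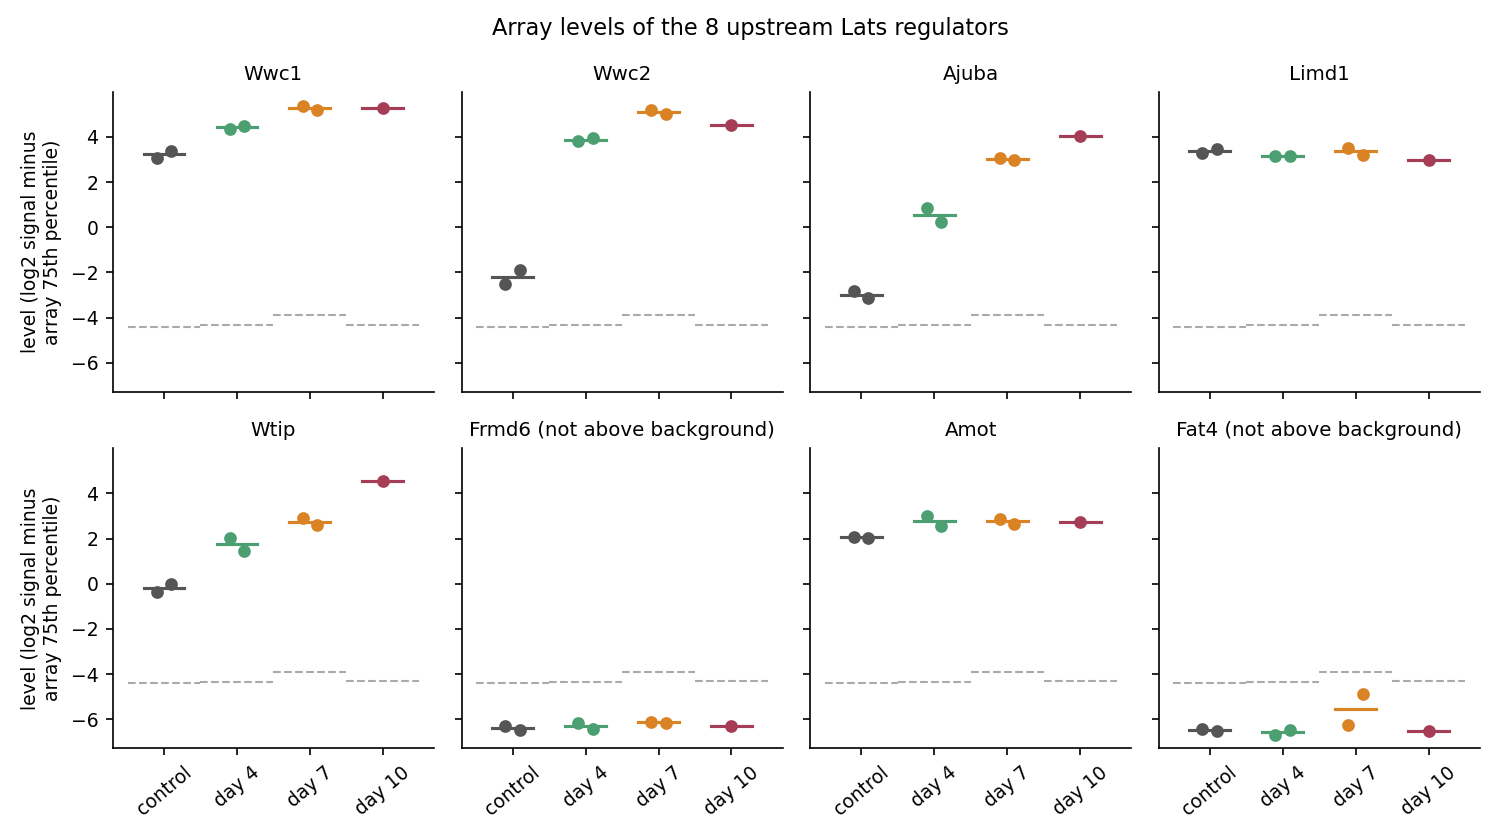
Level of each of the 8 genes by group, on a log2 axis as signal minus the 75th percentile of the array. Points are single arrays (2 per group, 1 at day 10), solid bars are group means, and dashed bars mark the lowest level of any probe well above background, averaged over the arrays of the group. Wwc2, Ajuba, Wtip, Wwc1 and, by less, Amot lie above control at every time. Limd1 stays between 2.99 and 3.49, and Frmd6 and Fat4 lie below the dashed bars.

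Over the group, 2 of the 6 tested genes were called at day 4 (Wwc2 and Ajuba), against 0.0311% of all probes tested called higher. At day 7 there were 4 (Wwc1, Wwc2, Ajuba and Wtip), against 3.15%, and at day 10 again these 4, against 10.8%. None of the 6 was called lower at any time, against 0% of all probes at day 4 (where 1784 probes had an unadjusted limma p under 0.05 in either direction, and where 37.5% of 8 calls were higher without control replicate 2), 4.36% at day 7 and 17.5% at day 10. Apart from the test, 5 of the 6 (all but Limd1) had every knockout array above both controls at day 4, day 7 and day 10, against 12.4%, 23.4% and 38.1% of all probes. The median difference over the 6 genes was 1.58 at day 4, 2.50 at day 7 and 3.40 at day 10, while that over all probes was -0.06, -0.05 and -0.12. Between day 4 and day 7, 1 of 6 was called higher (Ajuba), against 1.32% of all probes, and none lower, against 1.59%. Between day 7 and day 10 there was again 1 (Wtip), against 7.22%, and none lower, against 10.9%. Both day 7 arrays lay above both day 4 arrays for 5 of the 6 (all but Amot), against 24.5% of all probes, and the day 10 array lay above both day 7 arrays for 2 of the 6, against 35.1%. Ajuba and Wtip were the genes of the 6 whose groups rose in the order control, day 4, day 7, day 10 with no overlap, which held for 1.9% of all probes. The day 10 values rest on 1 array, whose spread was assumed to equal that of the other groups.

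**Figure D2:**
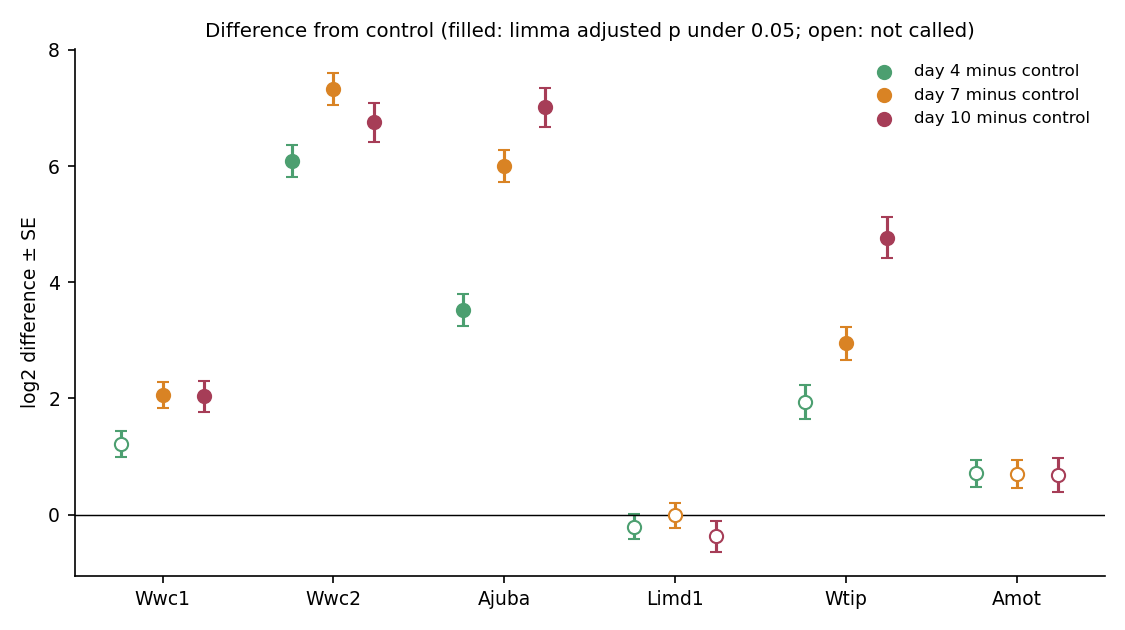
Difference from control of the 6 tested genes at day 4, day 7 and day 10, in log2 units with the SE from limma (2 arrays per group, 1 at day 10). Filled points were called at an adjusted p under 0.05. Wwc2 is at 6.09 by day 4 and lower at day 10 (6.75) than at day 7 (7.33), Ajuba and Wtip are higher at each later time, and Amot and Limd1 have open points throughout.

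The ratio of each other gene to Limd1 on the same array does not depend on the scaling between arrays. Limd1 was taken as the reference because its scaled level varied little in these same data, so that choice does rest on the scaling. The log2 ratio of Wwc2 to Limd1 was -5.81 and -5.35 in controls, 0.66 and 0.77 at day 4, 1.71 and 1.81 at day 7, and 1.55 at day 10. That of Ajuba to Limd1 was -6.12 and -6.58 in controls, -2.32 and -2.94 at day 4, -0.41 and -0.25 at day 7, and 1.03 at day 10. That of Wtip to Limd1 was -3.65 and -3.49, then -1.13 and -1.71, then -0.57 and -0.64, and 1.57 at day 10. In these ratios the groups of Ajuba and Wtip rose in order without overlap. The ratio of Wwc2 at day 10 lay between those of its day 4 and day 7 arrays. As the level of Limd1 ranged over only 0.49, the ratios largely repeat the levels given above and are no separate support for them. The mean ratio to Limd1 was 2.41 above control at day 10 for Wwc1, against 2.07 at day 7, and 1.05 for Amot, against 0.71. By level neither gene rose from day 7 to day 10 (-0.02 ± 0.27 for Wwc1 and -0.02 ± 0.29 for Amot). The level of Limd1, the divisor, differed by -0.36 ± 0.27 over that step. These ratios show unequal change within the group of genes, and were not tested.

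The promoter windows of the 4 genes called higher at day 7 are shown with the sequence that TEAD factors recognise. The windows span 250 bases before to 50 after the gene start, as RefSeq gives it for assembly GRCm38.p6, and were found for 7 of the 8 genes, Limd1 being the exception. The arrays carry the build label mm9, so these coordinates are not those of the probes. Capitals mark each match of GGAATG on either strand (CATTCC when read on the gene strand), of which Wwc1 has none.
Wwc2 (chr8:47990495-47990794, minus strand): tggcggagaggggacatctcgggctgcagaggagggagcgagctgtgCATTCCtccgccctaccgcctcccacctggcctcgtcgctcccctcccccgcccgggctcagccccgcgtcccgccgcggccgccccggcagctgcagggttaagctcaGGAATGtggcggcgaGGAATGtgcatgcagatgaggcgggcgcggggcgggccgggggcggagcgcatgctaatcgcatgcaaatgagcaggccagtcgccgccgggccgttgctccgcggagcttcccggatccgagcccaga
Ajuba (chr14:54577612-54577911, minus strand): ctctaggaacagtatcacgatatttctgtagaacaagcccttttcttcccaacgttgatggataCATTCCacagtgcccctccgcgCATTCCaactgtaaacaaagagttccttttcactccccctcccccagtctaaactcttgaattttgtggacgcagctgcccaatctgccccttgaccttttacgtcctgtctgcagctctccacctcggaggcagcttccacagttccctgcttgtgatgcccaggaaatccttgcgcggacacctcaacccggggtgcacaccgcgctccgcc
Wtip (chr7:34133219-34133518, minus strand): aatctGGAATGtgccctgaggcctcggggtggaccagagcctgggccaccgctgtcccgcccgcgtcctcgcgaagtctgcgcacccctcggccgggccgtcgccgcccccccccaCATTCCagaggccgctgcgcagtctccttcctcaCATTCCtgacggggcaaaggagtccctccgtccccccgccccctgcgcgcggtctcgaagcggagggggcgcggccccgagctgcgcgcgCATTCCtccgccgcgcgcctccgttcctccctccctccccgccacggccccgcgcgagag
Wwc1 (chr11:35980478-35980777, minus strand): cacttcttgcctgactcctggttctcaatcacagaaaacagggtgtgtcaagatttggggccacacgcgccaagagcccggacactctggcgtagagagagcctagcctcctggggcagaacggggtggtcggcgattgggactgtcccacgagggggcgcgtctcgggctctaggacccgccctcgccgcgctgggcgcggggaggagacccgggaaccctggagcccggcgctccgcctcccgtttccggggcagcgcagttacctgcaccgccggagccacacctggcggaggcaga

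GGAATG was found 4 times in the Wtip window, 3 times in that of Wwc2 and 2 times in that of Ajuba, and not in those of Wwc1, Amot, Frmd6 and Fat4. Of all 32851 promoter windows of the same length, 14.7% held at least 1 match, 1.36% at least 2, 0.131% at least 3 and 0.0183% at least 4. The windows differ in base composition, with more G and C in the Wtip window than in 96.1% of all windows, and likewise 93.5% for Wwc2, 87.4% for Wwc1 and 53.5% for Ajuba. In total 7 motifs were searched on both strands. The AP-1 sequence TGANTCA (in 7.81% of all windows) and the TATA box sequence TATAAA (13.6%) were in none of the 7 windows. The E-box CACGTG (7.15%) was in those of Frmd6 and Amot. The others were in several windows: CANNTG (72.3%) in 5, GGGCGG (35.7%) in 4 and CCAAT (37.4%) in 3. One CANNTG match of Ajuba overlapped with a GGAATG match. A match is a run of letters and not a binding site, and no binding was measured.

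**Figure D3:**
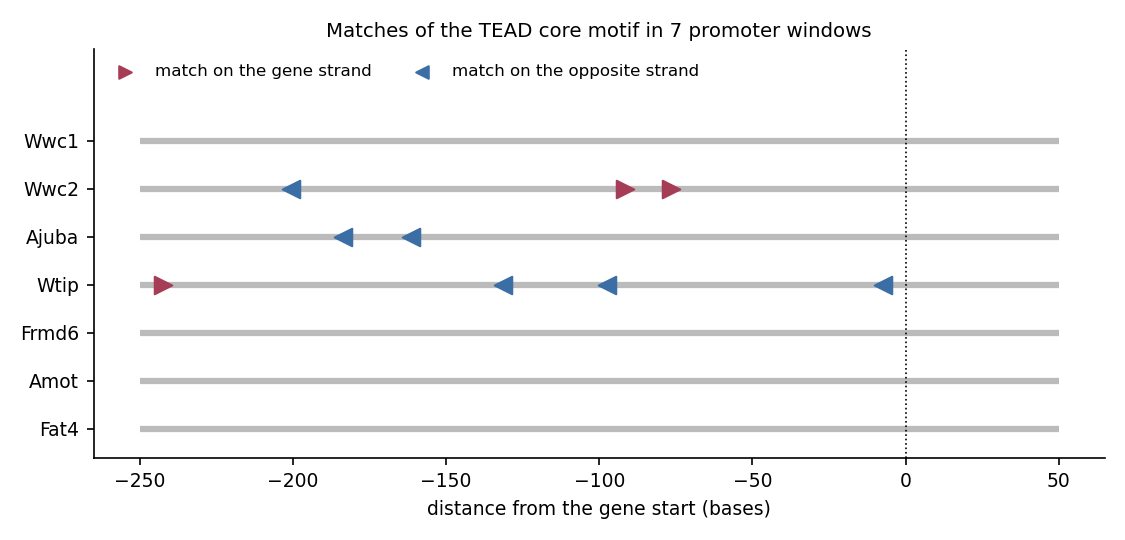
Position of each match of the TEAD sequence in the 7 promoter windows, as distance in bases from the gene start, with arrowheads for its strand. Wtip has 4 matches, Wwc2 has 3 and Ajuba has 2, and the other 4 windows have none.

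The remaining Hippo genes were taken from lists, with 1 probe per gene, its brightest. For the counts of these lists, 3.15% of all probes were called higher and 4.36% lower at day 7, and 10.8% and 17.5% at day 10. Among 17 tested core kinases and adaptors none was called higher and 1 lower at day 7 (median 0.17), and this was the targeted gene Mob1b (-1.56 ± 0.21, limma adjusted p = 0.013; -1.64 by its other probe). Lats2, a kinase of the pathway, differed by 1.23 ± 0.30 at day 7 (adjusted p = 0.066) and rose by 2.29 ± 0.37 at day 10 (adjusted p = 0.0064), while its other probe gave 0.25 and 1.06. At day 10 the list had 5 genes called higher and 3 lower (median 0.24), against 10.8% and 17.5% of all probes. The targeted genes were among them, Mob1a with its dim probe as higher (1.63 ± 0.30) and Mob1b as lower (-1.62 ± 0.26). The other zyxin family LIM genes had 1 of 4 called at day 7 (median 0.10). This was Trip6, a LIM protein of cell adhesions, which rose 4.43-fold (2.15 ± 0.33, limma adjusted p = 0.017) after a difference of 1.72 ± 0.33 at day 4 (adjusted p = 0.30). Lpp, its relative, differed by 0.28 ± 0.21 at day 7 (adjusted p = 0.48; 0.43 by its other probe, which was called at day 10 at 0.94). Trip6 and Lpp are named because they had the smallest p of this list at day 7. Of the LIM genes, Ajuba, Wtip and Trip6 were thus called higher at day 7, while Limd1, Lpp and the rest of the zyxin family list were not. At day 10 that list had 1 gene called higher and 1 lower.

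The angiomotin and junction scaffold list had 3 of 12 tested genes called higher at day 7 and 0 called lower (median 0.59). Amotl2, the angiomotin relative of Amot, rose 5.59-fold (2.48 ± 0.23, limma adjusted p = 0.0045) and Ptpn21, a FERM domain phosphatase, rose 2.81-fold (1.49 ± 0.22, adjusted p = 0.016). Only 2 of 6 genes of the fat and dachsous cadherin list on the array could be tested and neither was called at day 7. Fat1, a cadherin related to Fat4, had levels of 4.92 and 4.78 in controls, 4.36 and 4.62 at day 4, 5.25 and 5.05 at day 7 and 5.91 at day 10. It was thus below both controls at day 4 (-0.36 ± 0.22, limma adjusted p = 0.93) and rose 2.09-fold at day 10 (1.06 ± 0.27, adjusted p = 0.031). Fat2, dim on these arrays, differed by -0.38 ± 0.38 at day 7 (adjusted p = 0.60). Among 14 polarity and RASSF genes none rose and 2 fell at day 7 (median 0.05). Rassf4 was at least 3.05-fold lower, being not well above background on either day 7 array (limma adjusted p = 0.018), and Rassf6 fell 2.40-fold (-1.26 ± 0.25, adjusted p = 0.036). At day 10 neither was called against control (-0.05 ± 0.31 and 0.01 ± 0.30, limma adjusted p of 0.93 and 0.99), and the list had 1 gene higher and 0 lower.

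Among 7 tested genes of YAP, TAZ, the TEAD factors and their Vgll cofactors 3 rose and 1 fell at day 7 (median -0.27). Wwtr1, which encodes TAZ, rose by 2.82 ± 0.43 (limma adjusted p = 0.017). Tead1 rose by 2.59 ± 0.27 (adjusted p = 0.0057) by its brightest probe, and by 2.21 and 0.42 by its other 2 tested probes, neither of which was called. Of 19 tested YAP and TAZ target genes, a list that holds Ajuba and Wwc1 as well, 9 were called higher and 0 lower at day 7 (median 1.62), and 1 was called at day 4 (Ajuba). Ccn1, a secreted matrix protein and target of YAP, differed by 2.03 ± 0.29 at day 4 (adjusted p = 0.15) and rose by 4.05 ± 0.29 at day 7 (adjusted p = 0.0023). From day 7 to day 10 Ccn1 rose by 2.02 ± 0.35 (adjusted p = 0.013), and from day 4 to day 7 by 2.02 ± 0.29 (adjusted p = 0.028).

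**Figure D4:**
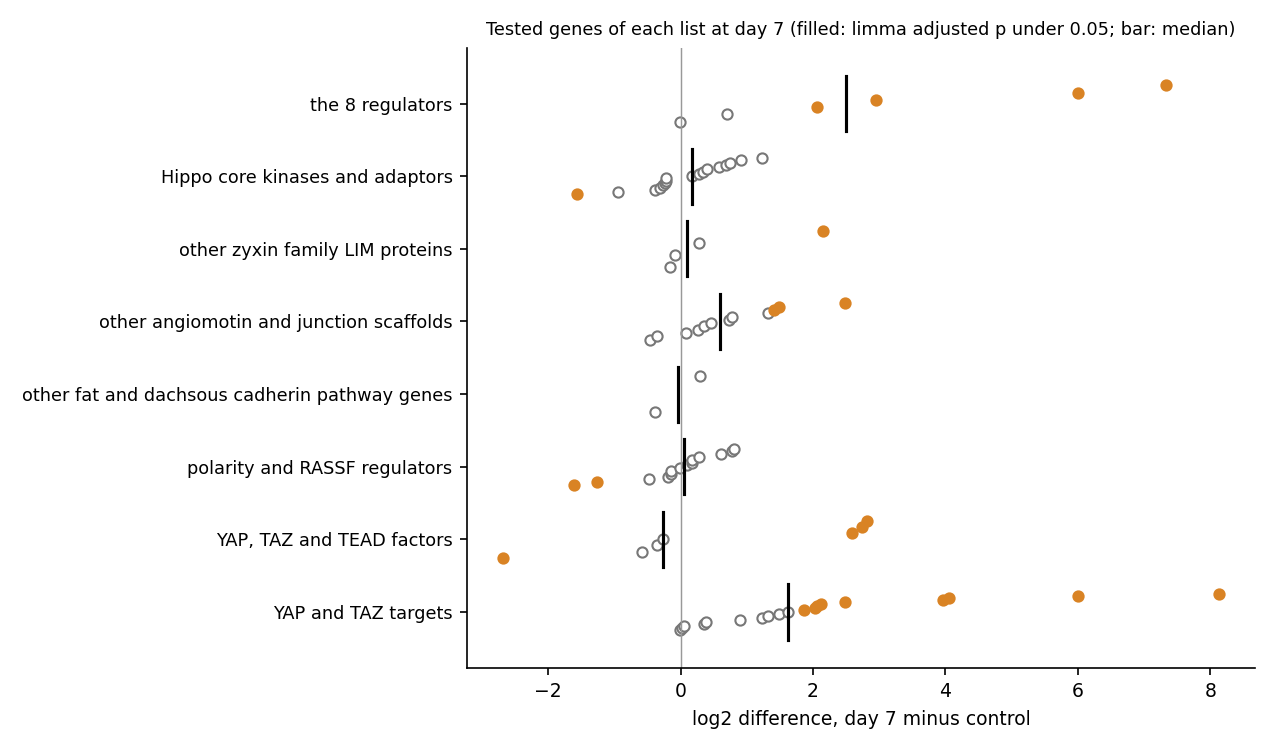
Difference at day 7 minus control (log2) of each tested gene of the 8 regulators and 7 Hippo lists, with 1 point per gene, its brightest probe. Filled points were called by limma at an adjusted p under 0.05, and black bars are medians. The median is 2.50 for the regulators and 1.62 for the YAP and TAZ targets, and between -0.27 and 0.59 for the other 6 lists. Ajuba is in the first and the last list, as is Wwc1, and Amotl2, Lats2 and Ptpn14 are also in more than 1 list.

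Likeness was measured as the Pearson correlation of levels over the 7 arrays with 3837 other genes whose own range was at least 2 log2 units. These correlations share arrays and groups and describe the shape of a profile only. Of the genes named by it, Ccdc154, Esr1, Arhgap6 and Tdrp were well above background on 0 of the 2 control arrays and Emp2 on 1, so that their control values are bounds and the order among close values of r is not firm. The profile of Wwc2 was most like those of Ccdc154 (r = 0.996), Gngt2 (r = 0.995) and Esr1 (r = 0.988), and 13 genes were above 0.95. Only 1 of 3 Esr1 probes and 1 of 2 Arhgap6 probes passed the filter for the test. Whether the Esr1 probe also reads the creERT2 transgene, carried by the knockout mice alone, was not tested. Ajuba was most like Ddah1, Arhgap6 and Tdrp (r = 0.995 each), with 68 genes above 0.95. Wtip was most like Pgap1 (r = 0.993), Psat1 and Emp2 (r = 0.989 each), with 81 above 0.95, and Wwc1 was most like Pla1a (r = 0.991), Sod3 (r = 0.991) and Arhgap6 (r = 0.985), with 41. Among the 6 genes themselves, r was 0.978 between Wwc1 and Ajuba, 0.965 between Ajuba and Wtip, 0.958 between Wwc1 and Wwc2 and 0.857 between Wwc2 and Wtip, while Limd1 had r between -0.503 and -0.279 with the other 5.

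Markers of other cell types were followed beside these rises. Of 8 fibroblast markers 4 (Col1a1, Lum, Pdgfra and Pdgfrb) were well above background on 0 arrays, and the summed level of the list was 0.696 to 1.11 in controls, 0.633 to 0.752 at day 4, 0.383 to 0.471 at day 7 and 0.362 at day 10. Of 6 smooth muscle markers 4 (Myh11, Des, Actg2 and Cnn1) were likewise well above background on 0 arrays, and the sum was 2.27 to 3.38 in controls and 1.94 to 2.16 at day 7. The endothelial sum was 8.30 to 9.05 in controls, 7.52 to 7.88 at day 4, 9.61 to 10.6 at day 7 and 7.70 at day 10, with Cdh5, Cldn5 and Emcn not well above background on any array and 1 of 3 tested markers called higher at day 7. The mesothelial sum was 0.225 to 0.305 in controls, 0.235 to 0.273 at day 4, 5.91 to 6.92 at day 7 and 349.8 at day 10, with 2 of 5 markers tested (1 called at day 7, both at day 10) and the defining markers Wt1, Upk3b and Lrrn4 not well above background on any array. At day 10 all 5 tested T cell markers fell (summed level of 10.2, against 181 to 211 in controls and 261 to 314 at day 7) and 3 of 5 tested myeloid markers rose (315, against 38.9 to 42.4 in controls and 49.9 to 59.0 at day 7). The part of these marker shifts in the day 7 and day 10 values of Ajuba, Wtip, Wwc1 and Wwc2 was not tested. The B and plasma cell sum was 2.32 to 4.12 in controls and 1.23 to 2.44 on the knockout arrays, and that of enteric neurons and glia was 30.2 to 51.9 in controls and 19.03 to 52.2 on the knockout arrays, with no member of either list called at any time.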

How the data were processed

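Intestinal epithelial RNA of 7 mice was measured on 7 arrays of Agilent design 028005. Per the file headers, the deposited intensity values come from Feature Extraction 11.5.1.1 and are background-subtracted spot signals without scaling between arrays. The deposited value table equalled these signals within 0.1% for 99.2% to 99.6% of probes and was used as an alternative. Its scale was linear and it was not centred, with column medians from 15.2 to 30.5. How it treats probes with several spots stays unknown.

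Control spots and spots flagged as outliers (115 to 274 per array) were left out, spots of a probe were averaged as log2, and 91 probes without a usable spot on some array were dropped. Each array was scaled by its 75th percentile. A probe entered the test if 2 or more of the 7 arrays had it well above background (28952 probes). Accessions were named through RefSeq (GRCm38.p6), which gave 27509 probes 1 symbol, 0 several and 28172 none. limma 3.58.1 in R 4.3.3 (lmFit, eBayes, 2-sided) estimated 4 group means from the 7 arrays together, with 3 residual and 3.14 prior degrees of freedom, and was tested on simulated data. Every probe was a feature, since each probe of a gene was to be followed. The replicates are different mice per the design text. The number of arrays limits the precision.

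The 8 genes and the lists were chosen with earlier results of these data known. Named genes were the 8, Mob1a, Mob1b, up to 2 genes per Hippo list with the smallest p at day 7, and for each of the 6 tested genes ranging over at least 1 log2 unit the 3 genes of most similar profile. Each result was recomputed under 16 other settings, and under 1 more (without the day 10 array) chosen after seeing the data. The normexp alternative used median spot signals, since the files hold no mean signals. Figures were drawn with matplotlib 3.10.9.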

Additional observations from a re-analysis of the deposited data

Results flagged for a closer look

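The difference of Ajuba from control was 2.49 higher at day 7 than at day 4 on the log2 scale (SE 0.28, limma adjusted p = 0.016). Both day 7 arrays lay above both day 4 arrays. Of the 5 other tested genes, none had such a difference called. Still, Wwc2 (1.23 ± 0.27), Wtip (1.00 ± 0.29), Wwc1 (0.85 ± 0.22) and Limd1 (0.19 ± 0.22) were also higher at day 7 without overlap. Amot was not (-0.01 ± 0.24). Such an order without overlap held for 24.5% of all probes, so that by itself it sets none of these genes apart. The Ajuba call ended under 3 of 17 alternatives, each leaving out 1 replicate, with sizes from 2.19 to 2.79. Day 4 and day 7 arrays lay on different slide rows, so that row and time cannot be told apart here.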

How the results depend on the processing

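All 4 calls at day 7 (Wwc1, Wwc2, Ajuba, Wtip), and the same 4 at day 10, were made under all 16 other settings, and those at day 7 also without the day 10 array, a fit chosen after seeing the data. Of the 2 calls at day 4, 1 remained (Wwc2) with normexp background correction, the 75th percentile taken over detected probes, no filter on dim probes, only the 2 groups compared, and the replicate block. Leaving out 1 replicate gave 0 to 1 calls at day 4, 0 to 1 from day 4 to day 7 and 0 to 1 from day 7 to day 10. With the filter tightened to all 7 arrays, 2 genes were called from day 4 to day 7, Ajuba and Wwc2. Over all 498 values of single genes under an alternative, 480 kept their side of the threshold, 17 lost a call, 1 gained one and none of a called gene reversed. Many of the 480 belong to uncalled results, such as those of Limd1 and Amot, which had no call to lose. Some settings also give the same fit, so these values are not independent. Of the losses, 11 were of Ajuba and 2 of Wwc2 at day 4. A further 3 were of Ajuba from day 4 to day 7, and 1 of Wtip from day 7 to day 10. Uncalled differences near 0 changed sign in 14 cases, for Limd1 at day 7 and for Amot and Wwc1 between knockout groups.

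The labels do not say that a replicate number marks a shared litter or day, so the numbers were not taken as pairs. As a check, same-numbered arrays of the 3 groups with 2 mice had deviations from the group mean with correlations of 0.01, 0.09 and 0.25. The largest was between day 4 and day 7, and a shared factor was not tested. With the replicate block the calls over all probes numbered 3 in place of 9 at day 4 and 2266 in place of 2173 at day 7, and Ajuba at day 4 had an adjusted p of 0.066. Over the alternatives the calls among all probes were between 1 and 33 at day 4 (9 as reported), 669 and 2472 at day 7 (2173), 0 and 1268 from day 4 to day 7 (842; the 0 was without day 4 replicate 2, with 3457 probes at an unadjusted limma p under 0.05) and 3131 and 5439 from day 7 to day 10 (5259). The share of higher calls at day 10 was 38.2% as reported, 28.8% with median scaling and 49.7% with the 75th percentile over detected probes, and for the step from day 7 to day 10 it was 39.8% as reported and 51.3% with the latter. For the step from day 4 to day 7 it was 45.5% as reported, 34.8% with median scaling and 66.8% of 238 calls without day 7 replicate 1. At day 7 against control it was 41.9% as reported, and 51.6%, 52.7% and 51.6% without control replicate 1, control replicate 2 and day 7 replicate 1. The median of all probes at day 10 was -0.12 as reported and between -0.32 and 0.09 under these scalings. That over the 6 genes was 3.40 as reported, and their values move with the scaling too. Wtip at day 10 was 4.57 with median scaling and 4.97 with the 75th percentile over detected probes, and Wwc1 was 1.84 and 2.24.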
